A study of Mus musculus with 8 samples.

Results

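The pentose phosphate pathway and its neighbours in NADPH supply were examined in the livers of mice fed a liquid alcohol diet. The group was chosen by name, as the 10 genes *G6pdx*, *H6pd*, *Pgls*, *Pgd*, *Rpia*, *Rpe*, *Taldo1*, *Tkt*, *Idh1* and *Ugdh*, read at the probe-sets that the array annotation gives these symbols. A probe-set named with a member was found for 9 of the 10, 8 of them with a probe-set of their own. *G6pdx* has none in that annotation, so its level was not analysed here. *Pgls* is named only on a probe-set shared with *Niban3*, whose values cannot be assigned to either gene.

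Liver RNA came from 8 wild type male C57Bl6J mice, 4 given the alcohol diet and 4 pair-fed controls, with 1 Affymetrix Mouse Exon 1.0 ST array for each mouse. All mice were 6 weeks old when the Lieber-DeCarli feeding began and stayed on it for 6 weeks. The alcohol mice (WA-811, WA-817, WA-833 and WA-836) received 2.06% alcohol for 3 days and 4.18% for 4 days. They then received 6.2% for 5 weeks by the array labels, or a slightly higher level by the study's methods, and both put alcohol at 35% of the calories of this final diet. The control mice (WC-820, WC-824, WC-834 and WC-840) were pair-fed, and maltose and dextrin supplied the calories that came from alcohol in the other diet. Values are log2 expression after RMA, a method that corrects background, equalizes the arrays and gives 1 value for the probes of a probe-set, so a difference of 1 is a factor of 2. The comparison asks how the alcohol diet alters liver transcripts.

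The pentose phosphate pathway starts from glucose 6-phosphate. Its oxidative branch makes NADPH, the electron donor that liver uses to recycle glutathione, to reduce xenobiotics and to build fatty acids and sterols. Its non-oxidative branch is reversible and exchanges pentose phosphates with the intermediates of glycolysis. NADPH is also made outside the pathway, by cytosolic and mitochondrial isocitrate dehydrogenases among others. In mouse and human cells several of these genes are known targets of NRF2, which switches on genes of antioxidant defence.

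Promoter windows of the 4 genes that changed are shown because 3 of them moved one way and 1 the other. The sequences are those of RefSeq on GRCm38.p6 and run 5′ to 3′ on the strand of the gene, from 250 bases before to 50 bases after the start. Capitals mark matches, on either strand, to the core of the antioxidant response element bound by NRF2 (TGACNNNGC, runs of 9 letters) and to the GC box bound by SP1 (GGGCGG, runs of 6 letters). In *Tkt* a pair of GC boxes that share a letter forms a longer run.
Ugdh, higher on the alcohol diet, chr5:65435793-65436092, minus strand: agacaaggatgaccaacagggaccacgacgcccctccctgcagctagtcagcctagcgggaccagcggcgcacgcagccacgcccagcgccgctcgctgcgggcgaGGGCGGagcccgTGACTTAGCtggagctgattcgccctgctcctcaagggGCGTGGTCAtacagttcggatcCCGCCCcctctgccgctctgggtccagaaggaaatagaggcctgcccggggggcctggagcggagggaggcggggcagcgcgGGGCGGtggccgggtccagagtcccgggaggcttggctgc
Pgd, higher on the alcohol diet, chr4:149166656-149166955, minus strand: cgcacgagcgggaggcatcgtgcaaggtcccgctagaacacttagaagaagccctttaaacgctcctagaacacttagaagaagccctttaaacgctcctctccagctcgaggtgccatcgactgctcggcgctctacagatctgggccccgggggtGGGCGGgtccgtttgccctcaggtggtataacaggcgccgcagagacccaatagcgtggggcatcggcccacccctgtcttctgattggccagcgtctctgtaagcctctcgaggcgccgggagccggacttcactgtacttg
Tkt, higher on the alcohol diet, chr14:30548881-30549180, plus strand: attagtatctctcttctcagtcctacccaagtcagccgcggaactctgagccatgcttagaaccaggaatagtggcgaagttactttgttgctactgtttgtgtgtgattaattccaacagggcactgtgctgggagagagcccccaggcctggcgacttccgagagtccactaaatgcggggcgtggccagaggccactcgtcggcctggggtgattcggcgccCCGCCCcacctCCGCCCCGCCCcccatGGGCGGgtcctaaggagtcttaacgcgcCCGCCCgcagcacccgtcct
Taldo1, lower on the alcohol diet, chr7:141391910-141392209, plus strand: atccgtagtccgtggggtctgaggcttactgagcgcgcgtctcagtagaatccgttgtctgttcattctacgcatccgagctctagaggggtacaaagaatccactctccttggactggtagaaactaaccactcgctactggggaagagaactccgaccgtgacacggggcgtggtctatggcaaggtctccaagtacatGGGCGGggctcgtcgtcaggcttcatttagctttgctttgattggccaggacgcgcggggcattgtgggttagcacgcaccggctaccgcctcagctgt

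All 10 members matched a RefSeq promoter, with 12 windows, since *Pgd* and *Idh1* have 2 starts each. The antioxidant response element core was found in 3 of the 12 windows, and in 12.4% of all 32851 windows of this length. The *Ugdh* window holds it at 2 places, which begin 132 and 94 bases before the start. The *G6pdx* window holds it 57 bases before the start. The third window is that of the inner start of *Pgd*, which lies within the gene, where the match begins at base 4 counted from the start as base 1, and the outer start printed above holds none. The windows of *Tkt* and *Taldo1* hold none either. The GC box was found in 10 of the 12 windows and in 35.7% of all windows, with 5 matches in *Tkt*, 3 in *Ugdh* and 1 each in *Taldo1* and the outer start of *Pgd*. The shares over all windows count genes whatever their level in liver, and genes of a level like that of the members were not compared. The matches describe the letters of the windows. Sequence outside the windows was not searched, and binding was not measured.

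Of the 9 members with a probe-set, *Pgd*, *Tkt* and *Ugdh* were higher on the alcohol diet, *Taldo1* was lower and 5 were not called. A gene is said to be higher, lower, risen or fallen at a Benjamini-Hochberg adjusted p under 0.05 from limma, a linear model whose variances are moderated over all probe-sets. The p-values were adjusted over the brightest 44.7% of the probe-sets, ranked by the fourth-highest of the 8 mice, and all 9 members lay among them. Across the probe-sets tested, 16.1% were called, 10.2% higher and 5.98% lower. The higher ones were 62.9% of these calls, and 51.8% after quantile normalization or 45.1% after centring each array on its median. The alcohol and control mice did not overlap for 4 of the 9 members, the same 4 that were called, and did not overlap for 23.7% of all probe-sets tested. At the thresholds of the study's methods (P of 0.0001, 1.5-fold) *Pgd*, *Ugdh* and *Taldo1* passed, against 1.76% of all probe-sets tested. The members were chosen with earlier results of these data known, so their counts cannot be read as an excess over all probe-sets. The median change of all probe-sets tested was 0.05 on the log2 scale.

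**Figure D1:**
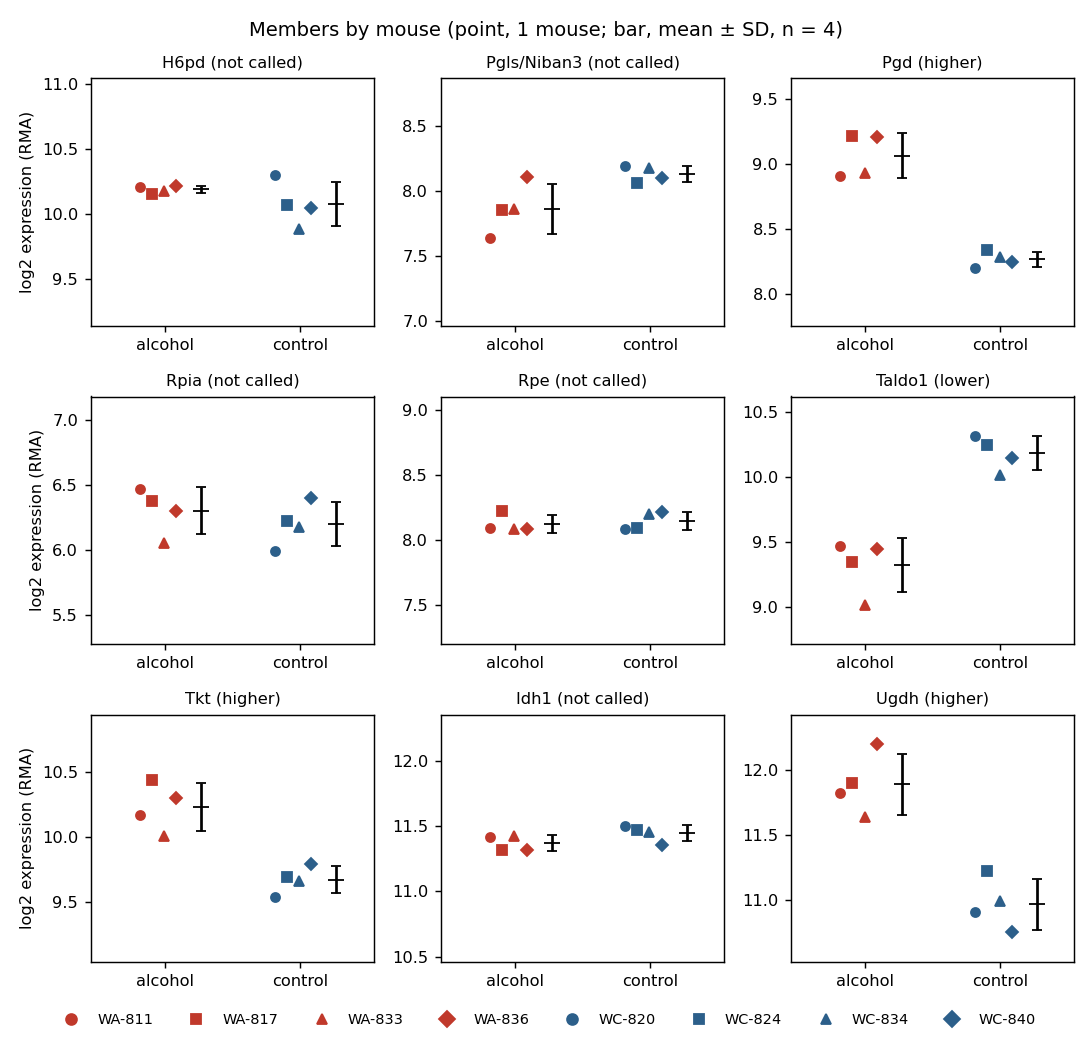
Log2 expression of the 9 members with a probe-set in each mouse, Pgls at the one shared with Niban3. The alcohol diet is on the left and the control diet on the right of each panel. Points are single mice and bars the mean ± SD (n = 4). All panels span the same height on the log2 scale, and the diets are apart for Pgd, Taldo1, Tkt and Ugdh alone among these 9.

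The livers were whole tissue, so a change in the share of a cell type and a change in the RNA of each cell cannot be told apart. Of the hepatocyte markers *Alb*, *Ttr* and *Hnf4a* none was called, and their mean level was 12.63 to 12.72 in the alcohol mice and 12.49 to 12.64 in the control mice. *Alb* and *Ttr* lay near the top of the arrays, with 0.03% and 0.08% of the probe-sets tested brighter. The change of *Hnf4a* was 0.34 (adjusted p = 0.0702 from limma). Of 11 Kupffer cell markers none was called, at a mean level of 7.86 to 8.45 in the alcohol mice and 7.88 to 8.43 in the control mice. No measured marker of neutrophils, monocytes, T and NK cells or B cells passed the filter. The mean level of the monocyte markers was 3.04 to 3.32 in the alcohol mice and 3.24 to 3.43 in the control mice, and that of the T and NK cell markers was 3.57 to 3.66 in the alcohol mice and 3.59 to 3.72 in the control mice. The mean level of the neutrophil markers was 3.64 to 3.81 in the alcohol mice and 3.72 to 3.88 in the control mice, and that of the B cell markers was 3.95 to 4.82 in the alcohol mice and 4.23 to 4.71 in the control mice. Markers of sinusoidal endothelial cells had 2 higher of 7 kept, with a mean level of 8.28 to 8.69 in the alcohol mice and 8.11 to 8.20 in the control mice. Stellate cell markers had 1 higher and 1 lower of 6 kept, at 6.72 to 6.84 in the alcohol mice and 6.60 to 6.77 in the control mice, and the 1 cholangiocyte marker kept was not called. Of 3 erythroid markers with a probe-set 1 was kept, *Alas2*, which was lower, and their mean level was 5.02 to 5.50 in the alcohol mice and 6.05 to 6.16 in the control mice. The mean levels of the endothelial and erythroid lists thus did not overlap between the diets. The largest changes in these lists were those of *Lyve1* (1.23) and *Alas2* (-2.07). The alcohol mice also lay above all control mice for *Clec4g* (0.47), *Pecam1* (0.22) and *Kdr* (0.24), though *Pecam1* and *Kdr* were not called. They lay below all control mice for *Slc4a1* (-0.36), which the filter removed. When read singly, *Stab1*, *Stab2*, *Oit3* and *Epb42* overlapped. The part of these cell types in the changes of *Pgd*, *Tkt*, *Ugdh* and *Taldo1* was not tested.

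In the oxidative branch *Pgd* rose, while *H6pd* and the *Pgls* probe-set were not called. *Pgd* encodes 6-phosphogluconate dehydrogenase, which makes NADPH and releases ribulose 5-phosphate. It read 8.91, 9.22, 8.93 and 9.21 in the alcohol mice and 8.20, 8.34, 8.29 and 8.25 in the control mice. Every alcohol mouse lay above every control mouse. The mean was 9.07 ± 0.17 in alcohol-fed mice, against 8.27 ± 0.06 in control mice (SD, 4 mice each), a 1.74-fold rise. The log2 change was 0.80 ± 0.09 (SE, limma adjusted p = 0.00165). A two-sided exact permutation of the 8 mice gave p = 0.0286, the smallest that 4 against 4 allow.

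*H6pd*, the enzyme of the endoplasmic reticulum that carries out the first steps of the pathway there, read 10.21, 10.16, 10.18 and 10.22 in the alcohol mice. In the control mice it read 10.30, 10.07, 9.89 and 10.05, a range that encloses all alcohol mice. The change was 0.12, with a 95% interval of -0.09 to 0.32 (adjusted p = 0.419 from limma). The spread between mice was 0.03 (SD) among alcohol mice and 0.17 among control mice. The probe-set of *Pgls*, the lactonase between the dehydrogenases, and of its neighbour *Niban3* read 7.64, 7.85, 7.86 and 8.11 in the alcohol mice and 8.19, 8.06, 8.18 and 8.10 in the control mice. The alcohol mice WA-811, WA-817 and WA-833 lay below all control mice, and WA-836 lay among them. Its change of -0.27 (95% interval -0.50 to -0.05) was not called with all mice (adjusted p = 0.0964 from limma). Without WA-836 it was -0.35 and called (adjusted p = 0.0315).

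The entry enzyme of the branch is *G6pdx* in most tissues, and its retrocopy *G6pd2* has a probe-set of its own. *G6pd2*, known as a testis gene, averaged 1.70 ± 0.27 in alcohol-fed mice, against 1.73 ± 0.40 in control mice (SD, 4 mice each). It was removed by the filter on low values, whose last probe-set had a fourth-highest value of 5.56. In the fit without the filter its adjusted p was 0.969.

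In the non-oxidative branch the transferases went opposite ways. *Tkt* encodes transketolase, which moves ketol units between sugar phosphates and works next to transaldolase, the product of *Taldo1*. *Tkt* read 10.17, 10.44, 10.01 and 10.30 in the alcohol mice and 9.54, 9.69, 9.66 and 9.79 in the control mice. Every alcohol mouse was above every control mouse. The mean was 10.23 ± 0.19 in alcohol-fed mice, against 9.67 ± 0.10 in control mice (SD, 4 mice each), a 1.47-fold rise. The log2 change was 0.56 ± 0.10 (SE, limma adjusted p = 0.00877, exact permutation p = 0.0286).

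*Taldo1* fell 1.82-fold. It read 9.47, 9.35, 9.02 and 9.45 in the alcohol mice and 10.32, 10.25, 10.02 and 10.15 in the control mice. Every alcohol mouse was below every control mouse. The mean was 9.32 ± 0.21 in alcohol-fed mice, against 10.18 ± 0.13 in control mice (SD, 4 mice each). The log2 change was -0.86 ± 0.12 (SE, limma adjusted p = 0.00298, exact permutation p = 0.0286), and its 95% interval ran from -1.12 to -0.60, against 0.32 to 0.79 for *Tkt*.

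The isomerase and the epimerase that feed these transferases were not called. *Rpia*, which makes ribose 5-phosphate for nucleotides, read 6.47, 6.38, 6.05 and 6.30 in the alcohol mice and 5.99, 6.22, 6.18 and 6.40 in the control mice. The diets overlapped over most of this range, and the change was 0.10 (95% interval -0.16 to 0.36, adjusted p = 0.596 from limma). *Rpe*, which makes xylulose 5-phosphate, read 8.09, 8.22, 8.08 and 8.08 in the alcohol mice and 8.08, 8.09, 8.20 and 8.21 in the control mice. These values share almost the same range on both diets, and the change of -0.02 had an interval of -0.18 to 0.13 (adjusted p = 0.847 from limma).

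**Figure D2:**
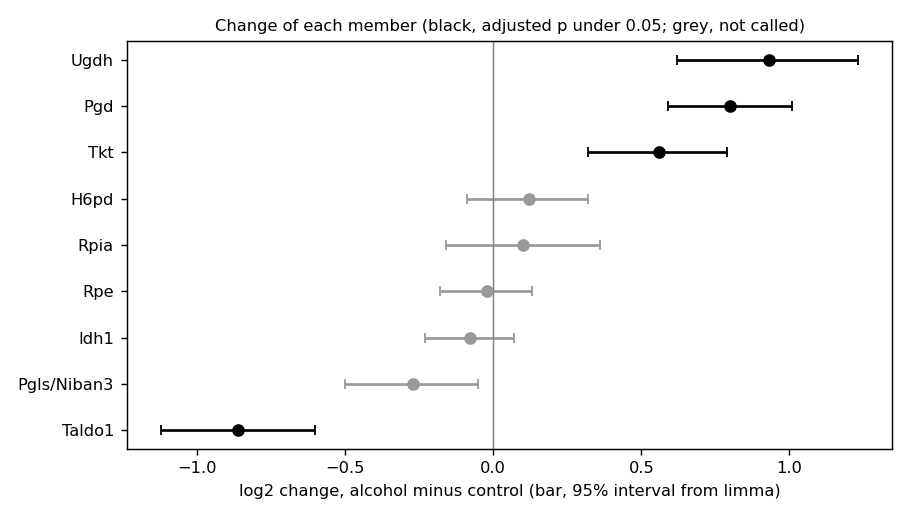
Log2 change of each member with a probe-set, alcohol minus control, with its 95% interval from limma (4 mice on each diet). The intervals of Ugdh (0.62 to 1.23), Pgd (0.59 to 1.01) and Tkt (0.32 to 0.79) lie above 0 and that of Taldo1 (-1.12 to -0.60) below it. Of the 5 members in grey, which were not called, the Pgls probe-set has an interval below 0 as well (-0.50 to -0.05).

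Outside the pathway *Ugdh* rose and *Idh1* was not called. *Ugdh* encodes UDP-glucose dehydrogenase, which makes the UDP-glucuronate used to conjugate drugs and bilirubin, and which yields NADH and not NADPH. It read 11.82, 11.90, 11.64 and 12.20 in the alcohol mice and 10.91, 11.22, 10.99 and 10.75 in the control mice. Every alcohol mouse exceeded every control mouse. The mean was 11.89 ± 0.23 in alcohol-fed mice, against 10.97 ± 0.20 in control mice (SD, 4 mice each), a 1.90-fold rise. The log2 change was 0.93 ± 0.14 (SE, limma adjusted p = 0.00383, exact permutation p = 0.0286).

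*Idh1*, the isocitrate dehydrogenase of cytosol and peroxisomes that makes NADPH, read 11.42, 11.32, 11.43 and 11.32 in the alcohol mice and 11.50, 11.47, 11.46 and 11.36 in the control mice. The diets overlapped, and the change of -0.08 had an interval of -0.23 to 0.07 (adjusted p = 0.479 from limma). Its mitochondrial counterpart *Idh2* is no member but was among the other NADPH makers examined. *Idh2* read 9.80, 9.97, 9.50 and 9.91 in the alcohol mice and 9.17, 9.02, 8.94 and 9.01 in the control mice. The diets did not overlap for *Idh2*, whose log2 change was 0.76 ± 0.11 (SE, limma adjusted p = 0.00348).

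The members that changed did not follow 1 order among the alcohol mice. Relative to the mean of the control mice, WA-833 had the smallest rise of *Tkt* (0.34) and of *Ugdh* (0.68) on the log2 scale, and the largest fall of *Taldo1* (-1.17). WA-836 had the largest rise of *Ugdh* (1.24). *Pgd* was up by 0.95 in WA-817 and 0.94 in WA-836, and by 0.66 in WA-833 and 0.64 in WA-811. Single control mice stayed within 0.25 of the control mean for every member. The number of mice on each diet is too small for a correlation between members.

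**Figure D3:**
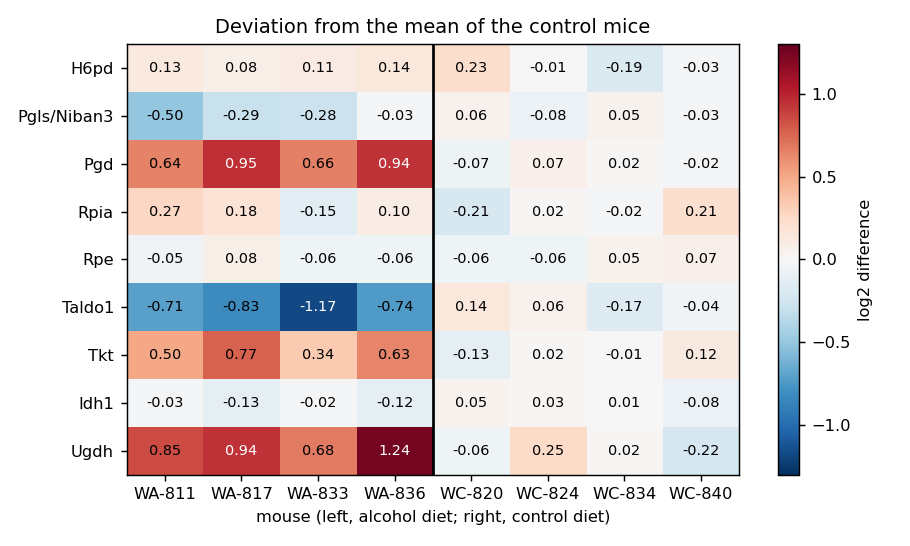
Log2 difference of each mouse from the mean of the 4 control mice for the 9 members with a probe-set. Alcohol mice are left of the line and control mice right of it. Pgd, Tkt and Ugdh are above and Taldo1 is below the control mean in all 4 alcohol mice, with Taldo1 lowest in WA-833 (-1.17) and Ugdh highest in WA-836 (1.24).

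Related genes were taken from 6 lists drawn up from textbook pathways with earlier results of these data known. They held 78 genes, 59 with a probe-set of their own and 48 kept by the filter. Of the 48, 16 were higher and 2 lower, beside 10.2% and 5.98% of all probe-sets tested. Because of how the lists were chosen, these counts cannot be read as an excess over all probe-sets. Of the other genes of pentose and ribose phosphates, 6 of 13 were kept, with 3 higher, none lower and a median change of 0.23. The higher genes were *Prps2* and *Prps1*, which make phosphoribosyl pyrophosphate for nucleotides, and *Dera*, a deoxyribose phosphate aldolase. *Prps2* rose by 0.51 ± 0.08 and *Prps1* by 0.39 ± 0.08 on the log2 scale (SE, limma adjusted p = 0.00511 and 0.0109), and the diets did not overlap for *Prps2*, with 7.28, 7.25, 7.18 and 7.45 in the alcohol mice and 6.89, 6.73, 6.71 and 6.77 in the control mice. *Dera* rose by 0.31 ± 0.08 (adjusted p = 0.0328 from limma), a call lost without any 1 mouse other than WA-817 (adjusted p 0.0531 to 0.0873). It was also lost without the filter on low values (0.101), after quantile normalization (0.0524) and after median centring (0.0810).

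Of 13 other NADPH makers 6 were kept, with 3 higher, none lower and a median change of 0.14. Besides *Idh2*, these were *Nnt*, a mitochondrial transhydrogenase, and *Nadk*, the kinase that makes NADP from NAD. The C57BL/6J substrain is known to carry a deletion in *Nnt*. The labels name C57Bl6J and the study's methods a C57BL6 background. Neither the deletion nor the NADPH of these mice was examined. *Nnt* rose by 0.36 ± 0.09 (adjusted p = 0.0284 from limma), and the call was lost without any 1 of WA-817, WA-833, WC-824, WC-834 and WC-840 (adjusted p 0.0539 to 0.0771) and without the filter (0.0919). *Nadk* rose by 0.24 ± 0.07 (adjusted p = 0.0442 from limma), a call lost when any 1 of the 8 mice was left out (adjusted p 0.0527 to 0.112), and likewise without the filter (0.123), after quantile normalization (0.0508) and after median centring (0.128). The folate enzymes *Mthfd1* and *Aldh1l1*, which also make NADPH, had log2 differences of -0.05 and 0.02 and were not called. *Me1*, the cytosolic malic enzyme, had no probe-set of its own in the annotation.

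Around *Ugdh*, 9 of 11 genes of UDP-glucuronate and uronate were kept, with 2 higher, 2 lower and a median change of 0.19. *Ugp2*, which makes the UDP-glucose that *Ugdh* oxidizes, read 11.28, 11.34, 11.62 and 11.75 in the alcohol mice and 10.90, 10.92, 10.86 and 10.94 in the control mice. The diets did not overlap for *Ugp2*, which rose by 0.59 ± 0.11 (adjusted p = 0.00816 from limma). *Slc35d1*, which carries UDP-glucuronate into the endoplasmic reticulum, rose by 0.47 ± 0.12 (adjusted p = 0.0254 from limma), a call lost without any 1 of WA-817, WA-836, WC-820, WC-834 and WC-840 (adjusted p 0.0518 to 0.0726) and without the filter (0.0863). The lower genes were *Rgn* and *Gulo*, the last steps from glucuronate to vitamin C in the mouse. *Rgn* read 11.11, 10.80, 11.36 and 11.02 in the alcohol mice and 11.87, 11.85, 12.01 and 11.90 in the control mice, with no overlap. Its log2 change was -0.84 ± 0.11 (adjusted p = 0.00307), and that of *Gulo* was -0.38 ± 0.08 (adjusted p = 0.0157), both from limma. The call of *Gulo* was lost without the filter (adjusted p = 0.0596).

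Among enzymes that use NADPH, 11 of 18 were kept, with 5 higher, none lower and a median change of 0.27. The higher genes were the carbonyl reductases *Cbr3* and *Cbr1*, the quinone reductase *Nqo1*, the biliverdin reductase *Blvrb* and the glutathione reductase *Gsr*. *Gsr* averaged 9.80 ± 0.20 in alcohol-fed mice, against 9.19 ± 0.13 in control mice (SD, 4 mice each), and its log2 difference was 0.62 ± 0.11 (limma adjusted p = 0.00835). *Blvrb* averaged 10.27 ± 0.30 in alcohol-fed mice, against 9.24 ± 0.09 in control mice, and its log2 difference was 1.04 ± 0.14 (adjusted p = 0.00304 from limma). The rises of *Cbr3*, *Nqo1* and *Cbr1* were 3.98 ± 0.35, 2.62 ± 0.21 and 1.61 ± 0.12 on the same scale. In the control mice *Cbr3* read 4.75, 4.07, 4.35 and 5.14, all below the filter level of 5.56, and *Nqo1* read 5.27, 5.75, 4.88 and 5.49. Both genes thus passed the filter through their values in the alcohol mice, and their place among the kept and higher genes is not independent of the diet. *Fasn*, which spends NADPH on fatty acids, differed by 0.27 and *Sqle*, which spends it on sterols, by -0.74, and neither was called. *Por*, which passes electrons of NADPH to cytochromes P450, had no probe-set of its own in the annotation.

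Of the genes that handle glucose 6-phosphate, 5 of 11 were kept, with 2 higher, none lower and a median change of 0.36. *Slc37a4*, which carries glucose 6-phosphate into the endoplasmic reticulum, rose by 0.38 ± 0.07 (adjusted p = 0.00773 from limma). *Pfkl*, the liver phosphofructokinase, rose by 0.36 ± 0.08 (adjusted p = 0.0164 from limma), a call lost without WC-824 or without WC-840 (adjusted p 0.0534 and 0.0506), and without the filter (0.0610). Of 12 regulators 11 were kept, with *Maff*, a small partner of NRF2, the one higher gene and none lower, and a median change of 0.16. *Maff* rose by 0.38 ± 0.09 (adjusted p = 0.0216 from limma), a call lost without any 1 of WA-811, WC-820 and WC-824 (adjusted p 0.0502 to 0.0571), without the filter (0.0751) and after quantile normalization (0.0522). The transcript of NRF2 itself, *Nfe2l2*, read 9.66, 9.46, 9.61 and 9.06 in the alcohol mice and 9.14, 9.32, 9.03 and 9.53 in the control mice. These ranges overlapped, and the change of 0.19 ± 0.15 was not called (adjusted p = 0.428 from limma).

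**Figure D4:**
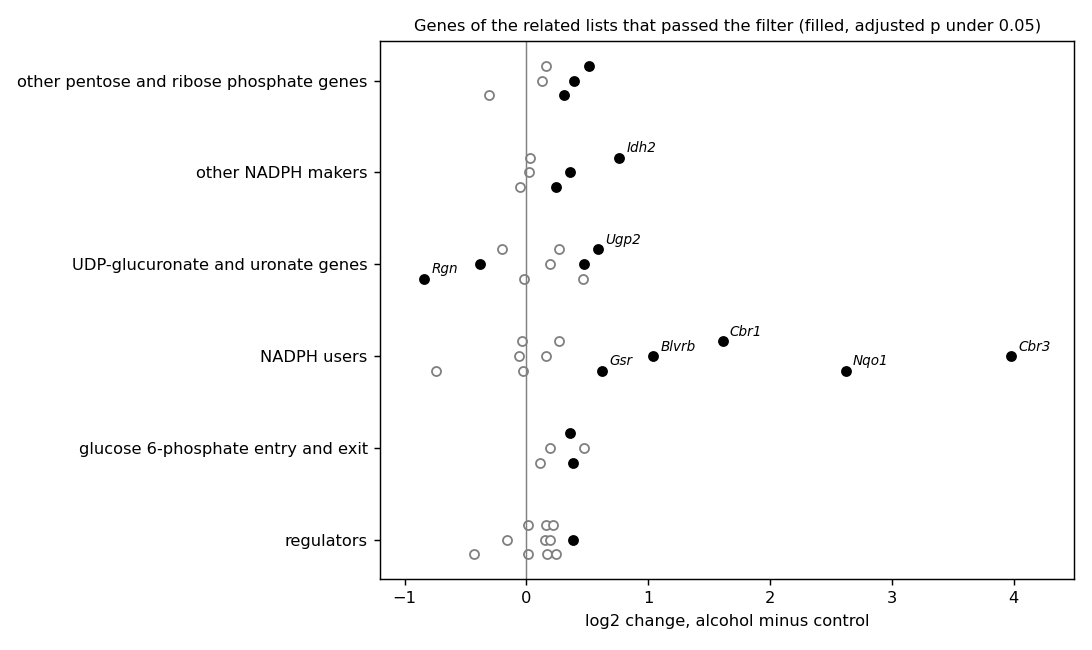
Log2 change, alcohol minus control, of the 48 genes of the related lists that passed the filter, filled where the adjusted p from limma was under 0.05. Most called genes lie to the right of 0, from Nadk (0.24) to Cbr3 (3.98), and Rgn (-0.84) and Gulo (-0.38) are the called genes to the left.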

How the data were processed

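The deposited values are log2 expression that the authors computed by RMA from 8 Affymetrix Mouse Exon 1.0 ST arrays, and the array labels name Affymetrix Expression Console, with no version. They carry no detection calls, and RMA compresses the folds of dim probe-sets. The number of arrays limits the precision. GEO's platform annotation named the probe-sets (14996 with 1 symbol, 1019 with several and 7317 with none). Genes were read at their own probe-set of highest mean, and *Pgls* at its shared one. No member had several probe-sets.

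Probe-sets were ranked by their fourth-highest value over the 8 arrays, and as many were kept as the study's own filter left (44.7%). Diets were compared in R 4.3.3 with limma 3.58.1 (2 groups, 6 residual degrees of freedom, default moderation), tested on simulated data. Exact permutation tests used all 70 arrangements of the mice. Named were all members, up to 4 called genes of each list with the largest change, and *Me1*, *Idh2*, *Gsr*, *Por*, *Nfe2l2* and *G6pd2*. *Fasn*, *Sqle*, *Mthfd1*, *Aldh1l1*, *Prpsap1*, *Srebf1*, *Cryl1*, *Akr1a1* and *Fbp1* were named after their values were seen. Members and lists were chosen with earlier results of these data known. Other filters, scalings and variance models and leaving out each mouse were tried. The arrays correlated with each other at 0.977 to 0.987.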

Additional observations from a re-analysis of the deposited data

Results flagged for a closer look

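*Rpe* stood out in 1 alcohol mouse. WA-817 read 8.22, while the other alcohol mice read 8.08 to 8.09, a gap of 0.940 of the range of the group. Of the 18 groups of 4 mice examined this was the 1 with a gap above Dixon's critical value. Chance puts about 1 group in 20 above it, so 1 among 18 groups is about what chance gives. The value lay within 0.01 of the highest control mouse, at 8.21.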

How the results depend on the processing

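The calls of *Pgd*, *Tkt*, *Ugdh* and *Taldo1* were kept under all 14 alternatives fitted, which were no filter, ranking by the mean level instead, quantile normalization, median centring, a variance trend, array weights and leaving out each of the 8 mice. Over these the log2 change was 0.74 to 0.85 for *Pgd*, 0.49 to 0.63 for *Tkt*, 0.82 to 1.01 for *Ugdh* and -0.92 to -0.76 for *Taldo1*, with adjusted p from limma up to 0.0119, 0.0393, 0.0220 and 0.0190. Of 126 member values 1 changed its call, that of the probe-set shared by *Pgls* and *Niban3* without WA-836. With 1 mouse left out, 1 to 2 of the members' probe-sets were thus lower. At P of 0.0001 and 1.5-fold 2 members were higher and 1 lower. None of the 672 values of related genes reversed a call, and 51 gained or lost one. Among genes not called in the main fit, *Prpsap1* (-0.31 there) was lower in 4 of the alternatives and *Srebf1* (-0.43) in 1. *Cryl1* (0.46) was higher in 2, and *Akr1a1* (0.19) and *Fbp1* (0.19) in 1 each. Without the filter the related genes had 10 higher and 1 lower, against 16 and 2, and all probe-sets 488 higher and 285 lower, against 1059 and 624, with all probe-sets tested. With 1 mouse left out, between 11 and 13 related genes were higher, always fewer than the 16 with all mice. In these fits 2 to 4 related genes were lower (4 without WA-833), 595 to 1086 probe-sets were higher and 362 to 557 lower. The fewest higher calls came without WC-824 (595), WC-834 (614), WC-840 (640) and WA-817 (695), and the fewest lower calls without WC-840 (362) and WC-824 (372). The mean over probe-sets of a gene gave no separate value, since no member has several. No paired analysis was possible because the mouse numbers in the labels are not shared between the diets.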
